A study of Mus musculus with 6 samples.

Results

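Transcripts of the cholesterol synthesis pathway and of other targets of the sterol regulatory element-binding proteins (SREBPs) were examined in 3 immortalized lines of mouse keratinocytes, which form the epidermis. The genes were chosen by name from a list of 32 members. A member was measured where a transcript cluster, the set of exons that the array assigns to a locus, carried that gene symbol alone in the platform annotation. This held for 29 of the 32 members, each with 1 cluster, among 14860 named genes and 23332 clusters in all. Tm7sf2, a sterol reductase gene, shares its cluster with another symbol, and Acat2 and Idi1 were not matched to a cluster, so these 3 members were not analysed here.

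The rescue line (MK546 with human α3) carried human integrin α3, stably transfected into the α3-null line. The null line (MK546) came from an α3-null newborn mouse, and the wild-type line (MK116) from a wild-type newborn mouse. The labels give no strain, no sex and no promoter for the transgene. All 3 lines carried the SV40 large T antigen and shared 1 culture medium, with 4% fetal bovine serum depleted of calcium, 0.05 mM calcium chloride, EGF, hydrocortisone, interferon-γ (10 units/ml) and insulin (5 μg/ml), at 33 °C on denatured collagen. Serum brings lipoprotein cholesterol, and insulin is a known inducer of Srebf1, and all 3 lines had both. Each line was measured on 2 exon arrays, called biological replicates in the design text, but no label says that each came from its own culture. The p-values therefore rest on the spread between these arrays, which may be technical, within 1 line of each kind. The null and wild-type lines come from different mice, and integrin status cannot be told apart from any other difference between them. The rescue is 1 transfected line, so human α3 cannot be told apart from the transfection or from any other change in that line. Values are PLIER intensities, the authors' summary of a cluster's probes on a linear scale, and differences are on the log2(intensity + 16) scale, tested with limma across all 23332 clusters and called at an adjusted p under 0.05.

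Cells make cholesterol from acetyl-CoA through mevalonate, isoprenoids, squalene and lanosterol. When sterol in the endoplasmic reticulum falls, the escort protein SCAP carries SREBPs to the Golgi, where proteases release them to enter the nucleus and raise transcription of nearly every enzyme of the route. When sterol is plentiful, INSIG proteins hold SCAP back. In the epidermis, cholesterol and fatty acids made by keratinocytes are needed for the permeability barrier.

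Of 12 keratinocyte markers, 11 lay above the array median on every array, and the summed intensity of the 12 was 51450 to 55157 on the rescue arrays, 61718 to 64348 on the null arrays and 60581 to 62135 on the wild-type arrays. For sebocytes, the lipid-secreting cells of the skin, 9 of 12 markers were measured, with sums of 568 to 610 on the rescue arrays, 570 to 595 on the null arrays and 607 to 651 on the wild-type arrays. The sums of 10 adipocyte markers were 968 to 987 on the rescue arrays, 957 to 966 on the null arrays and 1066 to 1082 on the wild-type arrays. The sums of 12 fibroblast markers were 909 to 970, 950 to 991 and 1805 to 2101 on the rescue, null and wild-type arrays, and most of the wild-type excess was Vim at 1069.7 ± 184 (SD, n = 2). Itga3, the targeted gene, gave 1218 and 1221 on the rescue arrays, 997 and 907 on the null arrays, with 6364 and 6287 on the wild-type arrays, so that it was lower in the null line, with a log2 difference of -2.71 ± 0.07 (limma adjusted p = 1.43e-05). Its mean in the null line still lay above 83.9% of all clusters, and the labels do not say which of its probes lie in the deleted part. The array's probes are for mouse sequence, while the rescue transgene is human. Itga3 was higher in the rescue than in the null line, at 0.35 ± 0.07 (limma adjusted p = 0.0219), a call lost with quantile normalization, with median centring and whichever array was left out except null replicate 1 (0.0610 to 0.101 without an array). Whether the transgene adds to this signal was not tested. Fewer cells making a transcript and less transcript per cell cannot be told apart in these bulk RNA values. Median intensity per array was 96.6 to 108, and 2 arrays a line limit the precision of every value.

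Promoters of 3 members are shown here as points of reference for the pathway. Hmgcs1 and Insig1 are textbook SREBP targets, and Lss had the largest difference called among the members between the null and the wild-type line. Each window runs from 250 bases before to 50 bases after the RefSeq gene start on GRCm38.p6, on the plus strand of chr13:119690101-119690400 for Hmgcs1, chr5:28071162-28071461 for Insig1 and chr10:76531355-76531654 for Lss. Capitals mark matches to TCACNCCAC, a core of the sterol regulatory element, or to CCAAT, the box bound by NF-Y, a known partner of SREBPs, on either strand (ATTGG when read on the other strand). No match to TCACNCCAC overlapped a CCAAT match in these 3 windows.
Hmgcs1: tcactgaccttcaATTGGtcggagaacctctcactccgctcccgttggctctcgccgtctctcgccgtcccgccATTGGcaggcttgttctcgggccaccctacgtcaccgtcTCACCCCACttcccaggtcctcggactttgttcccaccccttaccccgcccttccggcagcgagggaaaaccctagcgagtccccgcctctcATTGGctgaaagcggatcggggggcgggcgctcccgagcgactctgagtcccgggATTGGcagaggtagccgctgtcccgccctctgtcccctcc
Insig1: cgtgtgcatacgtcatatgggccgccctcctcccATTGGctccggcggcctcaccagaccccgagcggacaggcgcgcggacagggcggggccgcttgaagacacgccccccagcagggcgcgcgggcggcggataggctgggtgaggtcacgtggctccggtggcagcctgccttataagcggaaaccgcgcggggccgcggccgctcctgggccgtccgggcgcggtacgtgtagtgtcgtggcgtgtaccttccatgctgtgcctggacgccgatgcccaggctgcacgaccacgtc
Lss: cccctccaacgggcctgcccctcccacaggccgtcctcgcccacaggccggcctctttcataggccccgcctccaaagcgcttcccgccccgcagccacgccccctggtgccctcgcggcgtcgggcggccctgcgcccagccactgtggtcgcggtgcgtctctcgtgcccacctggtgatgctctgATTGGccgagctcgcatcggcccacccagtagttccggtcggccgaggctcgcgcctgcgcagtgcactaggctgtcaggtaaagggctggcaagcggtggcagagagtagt
The Hmgcs1 window held 1 match to TCACNCCAC, 137 bases before the gene start, and 4 CCAAT boxes, while the Insig1 and Lss windows held 1 CCAAT box each. Windows were available for 22 of the 29 measured members, 30 windows in all. TCACNCCAC was found in 1 of these 30 windows, against 1.24% of all 32851 promoter windows in the table. CCAAT was found in 19 of the 30 windows (63.3%), in 18 of the 22 genes, against 37.4% of all windows. A match is a match of letters only. The lack of a match means only that these letters were absent from the 300-base window. Other forms of the element, and sites outside the window, were not searched.

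Most of the pathway lay close together in the 3 lines. The highest line mean was 1.5 times the lowest or more for 3 of the 29 members, namely Scd1, Lss and Nsdhl. Over the 12719 named clusters with a mean intensity of 32 or more, 22.3% differed by 1.5 times or more between the highest and lowest line. The median of this ratio was 1.28 for the members and 1.27 for those clusters. The 2 arrays of a line differed by a median factor of 1.12 in the line where each member varied most, and by at most 1.31 (Fdps).

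**Figure D1:**
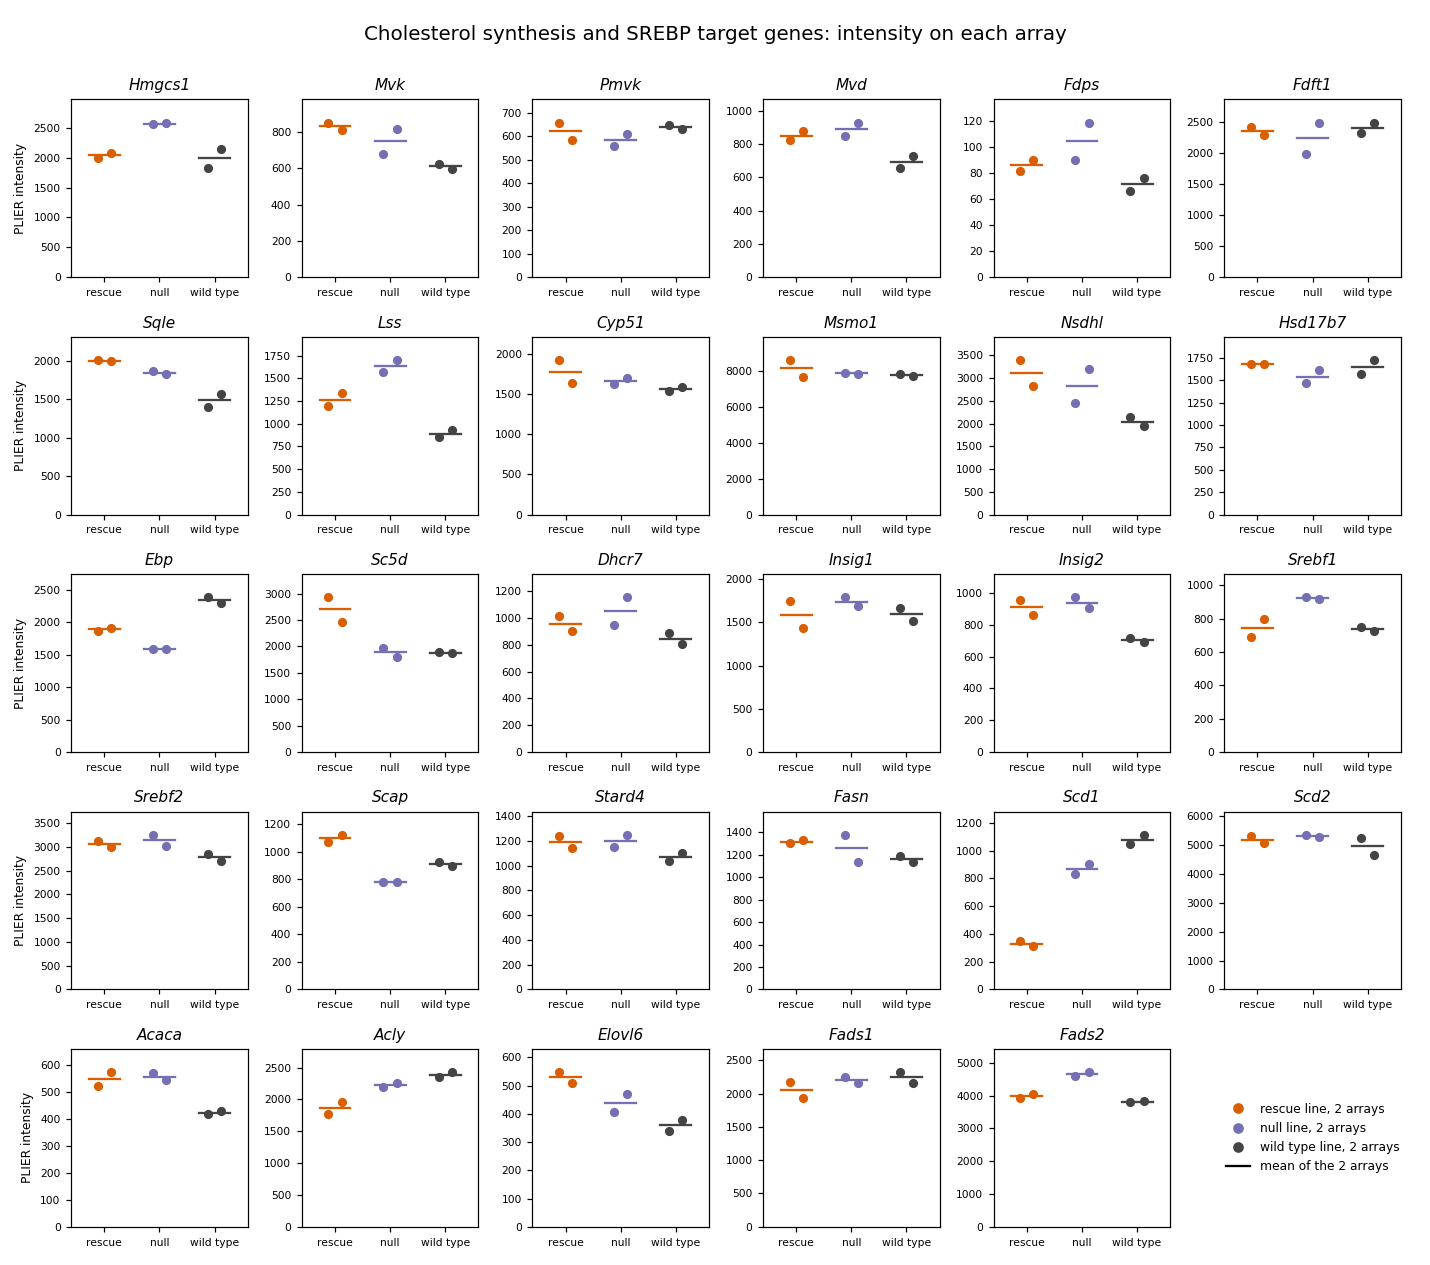
PLIER intensity (linear axis from 0) of the 29 measured members on each of the 6 arrays, with a point for each array and a bar at the mean of the 2 arrays of the rescue, null and wild-type line. Scd1 lies at 311 to 347 on the rescue arrays, below every null and wild-type array, and the other members differ less between lines than Scd1.

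The null line was set against the wild-type line to ask which of these transcripts differ where α3 is absent. Of the 29 members, 7 were higher in the null line and 1 was lower, that is 24.1% higher and 3.45% lower. Of all 23332 clusters, 15.3% were called, 8.49% higher and 6.84% lower. That background includes 7317 clusters with no symbol and many dim ones, while the members are named and mostly bright. A share for named clusters of like intensity was not computed, so an excess of calls among the members was not tested. Of the 12 keratinocyte markers, 4 were higher in the null line and 0 lower, and their part in the members' count was not tested. The higher members were Hmgcs1, Mvd, Sqle, Lss, Insig2, Acaca and Fads2, and the lower one was Ebp. All 8 called differences were under 2-fold. The arrays did not overlap in 24 members, 19 higher and 5 lower, while 28.1% of all clusters were higher without overlap and 28.2% lower. The median difference was 0.16 for the members and -0.01 for all clusters, and the members' median was 0.13 after quantile normalization and 0.24 with arrays centred on their medians. Of all calls in this comparison, 55.4% were higher as deposited, 53.2% with quantile normalization and 68.1% with median centring.

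At the head of the pathway, Hmgcs1 encodes the cytosolic HMG-CoA synthase that makes the precursor of mevalonate. It had 2555 and 2586 on the null arrays, against 1834 and 2141 on the wild-type arrays. The null arrays lay close together and above both wild-type arrays, and the difference was 0.37 ± 0.09 (limma adjusted p = 0.0381). Mvd, which decarboxylates mevalonate diphosphate to the first isoprenoid unit, had 849.8 and 929.8 on the null arrays, against 658 and 728 on the wild-type arrays, and it differed by 0.35 ± 0.09 (limma adjusted p = 0.0424). The other mevalonate genes did not pass. The 2 kinase genes gave 681 and 817 on the null arrays, against 627 and 597 on the wild-type arrays for Mvk, and 559.8 and 609.6 on the null arrays, against 647 and 633 on the wild-type arrays for Pmvk. Fdps, farnesyl diphosphate synthase, had 90.3 and 119 on the null arrays, against 66.5 and 76.2 on the wild-type arrays. Its mean, the lowest of the members, lay above 51.4% of all clusters in the null line and 42.4% in the wild-type line. Without detection calls, how much of this signal is background was not tested. The 2 null arrays of Fdps and of Mvk lay further apart than the 2 wild-type arrays, and both lay above them.

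The largest difference among the members was in Lss, lanosterol synthase, which closes squalene epoxide into the first sterol. Lss had 1567 and 1701 on the null arrays, against 853 and 928 on the wild-type arrays, so that every null array lay above every wild-type array. The null mean was 1.84 times the wild-type mean, with a log2 difference of 0.86 ± 0.09 (limma adjusted p = 0.00242). Sqle, squalene epoxidase, the enzyme just before it and a rate-limiting step, had 1865 and 1828 on the null arrays, against 1404 and 1573 on the wild-type arrays, and it differed by 0.31 ± 0.07 (limma adjusted p = 0.0410). Ebp, the sterol isomerase further down the route, went the other way, with 1589 and 1584 on the null arrays, against 2387 and 2304 on the wild-type arrays and no overlap. Its null mean was 0.677 times the wild-type mean, and its log2 difference was -0.56 ± 0.06 (limma adjusted p = 0.00273). Of the 20 nearest named genes, 10 on each side, 0 were called higher and 3 lower around Ebp, and 2 and 1 around Lss. Of all clusters, 8.49% and 6.84% were so, and the neighbours' part in these values was not tested.

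The other sterol enzymes did not pass. Msmo1, the methylsterol oxidase, was among the members nearest to equality, with 7878 and 7805 on the null arrays, against 7805 and 7714 on the wild-type arrays and a 95% interval for the difference of -0.17 to 0.20. Sc5d, the lathosterol desaturase, gave 1975 and 1797 on the null arrays, against 1898 and 1868 on the wild-type arrays, with overlapping arrays. Nsdhl, a sterol dehydrogenase, had 2465 and 3204 on the null arrays, against 2137 and 1950.4 on the wild-type arrays, and the spread between its null arrays was wide, so that the interval ran from 0.09 to 0.82. Cyp51, the lanosterol demethylase, Fdft1, squalene synthase, Hsd17b7, a ketosterol reductase, and Dhcr7, which makes cholesterol from its dehydro precursor, had differences whose intervals were -0.14 to 0.31, -0.39 to 0.16, -0.29 to 0.10 and 0.02 to 0.59.

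Among the genes that control SREBP, Insig2 was the member called. It had 974 and 904 on the null arrays, against 719 and 695 on the wild-type arrays, and it differed by 0.40 ± 0.08 (limma adjusted p = 0.0234). Insig1, itself a direct SREBP target, had 1791 and 1687 on the null arrays, against 1667 and 1517 on the wild-type arrays, did not pass, and had an interval of -0.14 to 0.40. Srebf1 and Srebf2, which encode the factors themselves, gave 928 and 916 on the null arrays, against 751 and 724 on the wild-type arrays for Srebf1, and 3259 and 3030.3 on the null arrays, against 2851 and 2709.7 on the wild-type arrays for Srebf2. The arrays of the lines did not overlap for either gene, but neither passed (limma adjusted p = 0.0606 and 0.166). Scap, the escort, had 781 and 779.8 on the null arrays, against 923 and 898 on the wild-type arrays and did not pass (limma adjusted p = 0.0727). Stard4, a cytosolic sterol carrier and SREBP2 target, also did not pass (interval -0.03 to 0.36).

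In fatty acid synthesis, Acaca, the acetyl-CoA carboxylase that makes malonyl-CoA, had 569 and 544 on the null arrays, against 417 and 429.7 on the wild-type arrays, and it differed by 0.38 ± 0.08 (limma adjusted p = 0.0244). Fads2, the desaturase that starts the synthesis of polyunsaturated fatty acids, had 4598 and 4714 on the null arrays, against 3791 and 3825 on the wild-type arrays, and it differed by 0.29 ± 0.06 (limma adjusted p = 0.0251). Scd1, a stearoyl-CoA desaturase that makes monounsaturated fatty acids, had 833 and 904 on the null arrays, against 1044 and 1115 on the wild-type arrays and did not pass (limma adjusted p = 0.0671). The intervals of the others that did not pass were -0.14 to 0.35 for Fasn, fatty acid synthase, -0.28 to 0.07 for Acly, the citrate lyase that supplies acetyl-CoA, 0.03 to 0.52 for Elovl6, an elongase, -0.08 to 0.29 for Scd2 and -0.22 to 0.18 for Fads1.

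The calls of Lss and Ebp were kept with any of the 6 arrays left out (largest limma adjusted p = 0.0294 and 0.0390). Those of Hmgcs1, Mvd and Sqle were lost whichever of the 6 arrays was left out (limma adjusted p 0.0503 to 0.216), and also after quantile normalization. Those of Insig2, Acaca and Fads2 were lost whichever of the 4 null and wild-type arrays was left out (0.0658 to 0.160). The count of higher members was 1 without a null or wild-type array, whichever it was. It was 5 without either rescue array, where Srebf1 was called besides the 4 that stayed (limma adjusted p = 0.0314 without replicate 1 and 0.0317 without replicate 2).

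**Figure D2:**
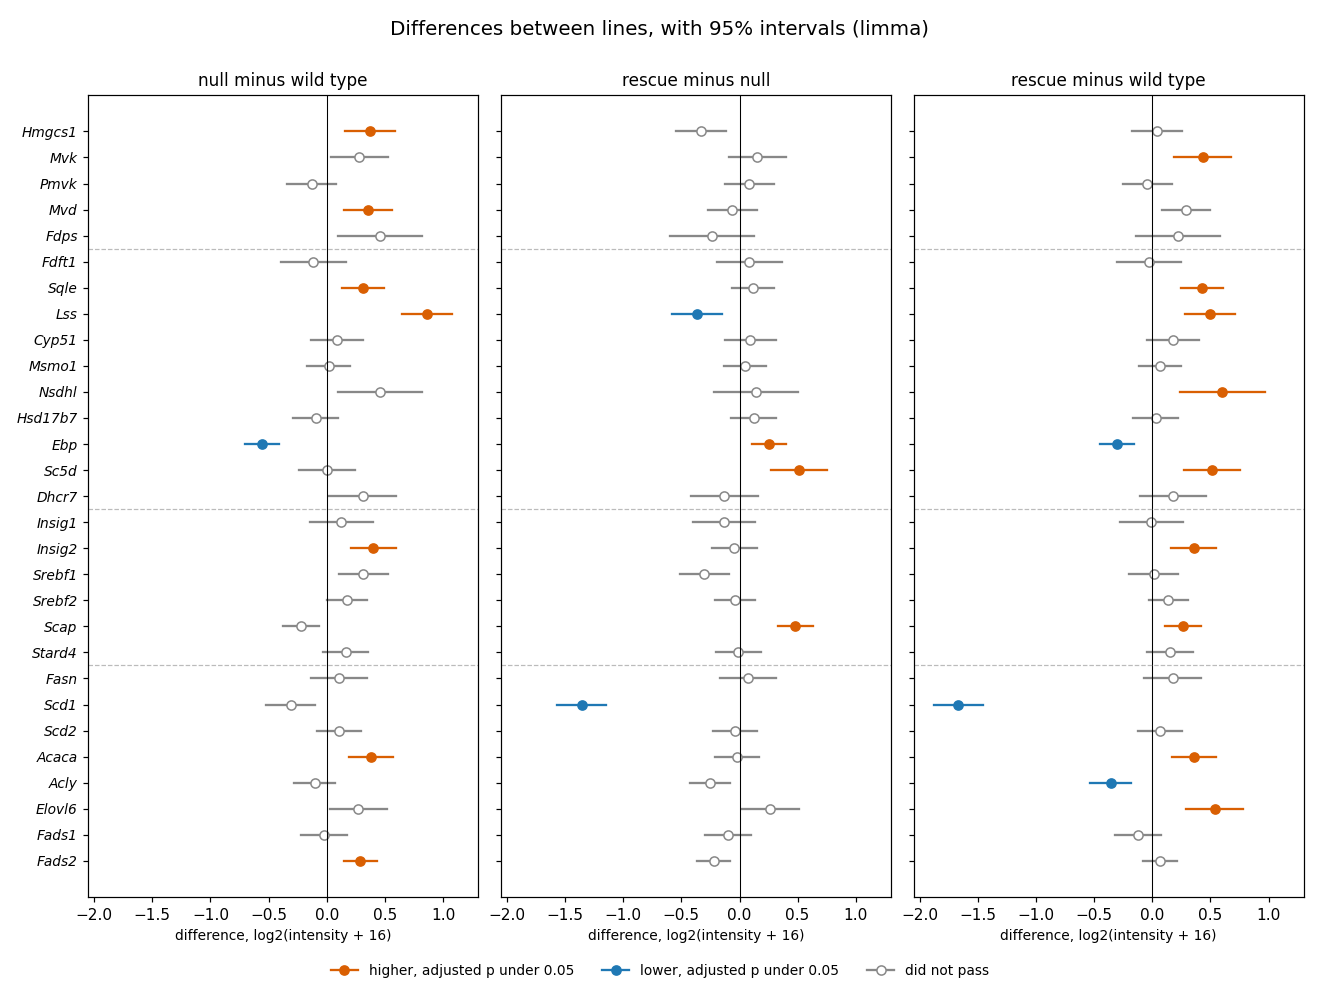
Difference of each member between null and wild type, between rescue and null, and between rescue and wild type on the log2(intensity + 16) scale, with 95% intervals from limma; dashed lines separate the mevalonate, sterol, SREBP control and fatty acid genes, and filled points passed an adjusted p of 0.05. Scd1 stands at -1.36 in rescue minus null and -1.67 in rescue minus wild type, apart from the other 28 members.

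The rescue line was compared with its null parent, which lacks the human α3, to ask which transcripts differ between these 2 lines. Of the 29 members, 3 were higher in the rescue line and 2 were lower, or 10.3% and 6.90%. Of all clusters, 15.4% were called, 9.75% higher and 5.62% lower, so the members' shares lay near the background. The higher members were Scap, Sc5d and Ebp, and the lower ones Scd1 and Lss. The arrays did not overlap in 6 members that were higher and 7 that were lower, where 31.2% and 24.4% of all clusters did the same. This comparison shares its null arrays with the one against the wild type.

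Scd1 had by far the largest difference of the members. It gave 347 and 311 on the rescue arrays, 833 and 904 on the null arrays, with 1044 and 1115 on the wild-type arrays. The rescue arrays lay below all 4 others, and the rescue mean was 0.379 times the null mean. The log2 difference was -1.36 ± 0.09 (limma adjusted p = 6.87e-04), and it was the one member that differed by more than 2-fold. Scd2, a desaturase gene of the same family on chromosome 19, gave 5298 and 5064 on the rescue arrays, 5356 and 5285 on the null arrays, with 5245 and 4671 on the wild-type arrays, with overlapping arrays and an interval of -0.23 to 0.15 between rescue and null. Scd3, another gene of that family, known from sebaceous glands, gave 224 and 207 on the rescue arrays, 176 and 193 on the null arrays, with 212 and 175 on the wild-type arrays and did not pass (limma adjusted p = 0.313). Of the 20 nearest named genes around Scd1 in GRCm38 order, 10 on each side, 1 was called higher and 3 lower. Their median difference between rescue and null was -0.01. Of all clusters, 9.75% were called higher and 5.62% lower in this comparison, with a median of 0.02. The neighbours' part in the Scd1 value was not tested.

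Scap was higher in the rescue line, with 1069.7 and 1122 on the rescue arrays, 781 and 779.8 on the null arrays, with 923 and 898 on the wild-type arrays. Its arrays did not overlap between any 2 lines, and the log2 difference between rescue and null was 0.48 ± 0.06 (limma adjusted p = 0.00711). Sc5d, which introduces a double bond in the last steps of the route, had 2931 and 2472 on the rescue arrays, 1975 and 1797 on the null arrays, with 1898 and 1868 on the wild-type arrays. The rescue arrays lay above all others, with a difference of 0.51 ± 0.10 (limma adjusted p = 0.0216). Ebp, at 1874 and 1917 on the rescue arrays, 1589 and 1584 on the null arrays, with 2387 and 2304 on the wild-type arrays, stood between the other lines in the rescue line and differed from the null line by 0.25 ± 0.06 (limma adjusted p = 0.0387). Lss, at 1196 and 1336 on the rescue arrays, against 1567 and 1701 on the null arrays, was lower in the rescue line, with a log2 difference of -0.37 ± 0.09 (limma adjusted p = 0.0430), and its rescue arrays still lay above the 2 wild-type arrays. Of the 20 nearest named genes, 1 was called higher and 2 lower around Scap, and 3 and 1 around Sc5d. The counts were 2 and 0 around Ebp, and 1 and 2 around Lss. Of all clusters, 9.75% and 5.62% were so, and the neighbours' part in these values was not tested.

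Of the mevalonate genes, 0 of 5 passed in this comparison. Hmgcs1 gave 1999 and 2082 on the rescue arrays, against 2555 and 2586 on the null arrays without overlap, short of the threshold (limma adjusted p = 0.0547). Srebf1, Fads2 and Acly likewise had non-overlapping arrays, lower in the rescue line, and adjusted p of 0.0679, 0.0566 and 0.0654 in limma. Srebf2, Insig1, Insig2 and Stard4 had intervals of -0.21 to 0.13, -0.40 to 0.13, -0.24 to 0.15 and -0.21 to 0.18. Over the 24 members that did not pass, every interval excluded a 2-fold difference, the widest bounds being -0.60 for Fdps and 0.51 for Elovl6.

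Keratinocyte markers moved in the same comparison. Of the 12 markers, 6 were lower in the rescue line and 0 were higher, with a median difference of -0.35, and their part in the results on lipid genes was not tested. Centring each array on its median shifted the differences between rescue and null by -0.12. The members' median difference was -0.02 as deposited, against 0.02 for all clusters. With quantile normalization it was -0.07, against -0.04, and with median centring -0.14, against -0.10. The sterol enzymes had a median of 0.11 as deposited, 0.05 with quantile normalization and -0.01 with median centring, so the direction of that group turned with the scaling. Of all calls in this comparison, 63.4% were higher as deposited, 49.9% with quantile normalization and 40.9% with median centring.

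The calls of Scd1 and Scap were kept with any array left out (largest limma adjusted p = 0.00927 and 0.0463). Lss and Ebp lost theirs whichever of the 6 arrays was left out (limma adjusted p 0.0512 to 0.178), and Ebp also after quantile normalization and median centring. Sc5d lost its call whichever array was left out, except rescue replicate 2 (0.0553 to 0.110). The higher members then numbered 2 without rescue replicate 2 and 1 without each of the other 5 arrays, and the lower ones 3 without rescue replicate 2 and 1 without each of the other 5. The 3 were Scd1 with Srebf1 and Acly, which were called there alone among the arrays left out (limma adjusted p = 0.0359 and 0.0481).

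The rescue line was also set against the wild-type line. Of the 29 members, 9 were higher in the rescue line and 3 were lower, or 31.0% and 10.3%. Of all clusters, 15.4% were called, 10.4% higher and 5.05% lower, again without matching for intensity. The higher members were Mvk, Sqle, Lss, Nsdhl, Sc5d, Insig2, Scap, Acaca and Elovl6, and the lower ones Scd1, Ebp and Acly. Without overlap of the arrays, 17 members were higher and 3 lower, while 32.8% and 24.8% of all clusters were so. The members' median difference was 0.15, against 0.03 for all clusters. It was 0.08 with quantile normalization and 0.11 with median centring. Of all calls here, 67.2% were higher as deposited, 53.5% with quantile normalization and 60.0% with median centring. The comparison shares the rescue arrays and the wild-type arrays with the 2 before it, and its values stand here beside theirs.

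Scd1 in the rescue line was at 0.305 times the wild-type mean, a log2 difference of -1.67 ± 0.09 (limma adjusted p = 1.64e-04). Of the sterol enzymes, Nsdhl gave 3401 and 2836 on the rescue arrays, against 2137 and 1950.4 on the wild-type arrays, and it differed by 0.60 ± 0.15 (limma adjusted p = 0.0460). Sc5d differed by 0.51 ± 0.10 (limma adjusted p = 0.0218), while in null minus wild type its difference was 0.00. The 20 nearest named genes around Sc5d had a median difference of 0.28 here, against 0.03 for all clusters. Of these 20, 2 were called higher and 2 lower, beside 10.4% and 5.05% of all clusters. The neighbours' part in the Sc5d value was not tested. Lss differed by 0.50 ± 0.09 (limma adjusted p = 0.0168), against 0.86 in null minus wild type. Sqle gave 2012 and 1994 on the rescue arrays, against 1404 and 1573 on the wild-type arrays, with the rescue arrays close together, and it differed by 0.43 ± 0.07 (limma adjusted p = 0.0159). Ebp was lower, at -0.30 ± 0.06 (limma adjusted p = 0.0223), where null minus wild type gave -0.56.

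Mvk, mevalonate kinase, had 853 and 811 on the rescue arrays, against 627 and 597 on the wild-type arrays without overlap, and it differed by 0.43 ± 0.10 (limma adjusted p = 0.0378). Elovl6, which lengthens saturated fatty acids, had 548 and 509.8 on the rescue arrays, 407 and 469.6 on the null arrays, with 341 and 379 on the wild-type arrays. The lines ran in the order rescue, null and wild type without overlap, and rescue differed from wild type by 0.54 ± 0.10 (limma adjusted p = 0.0201). Acly, which splits citrate into acetyl-CoA, had 1772 and 1953 on the rescue arrays, 2196 and 2252 on the null arrays, with 2351 and 2429 on the wild-type arrays, the rescue arrays below all others, and differed from wild type by -0.36 ± 0.07 (limma adjusted p = 0.0239). Acaca gave 521 and 574 on the rescue arrays, against 417 and 429.7 on the wild-type arrays and Insig2 957 and 865 on the rescue arrays, against 719 and 695 on the wild-type arrays, with log2 differences of 0.36 and 0.36 in limma (adjusted p = 0.0310 and 0.0347). Scap differed by 0.26 ± 0.06 (limma adjusted p = 0.0423). Hmgcs1 and Mvd, which were called between null and wild type, had differences of 0.04 (interval -0.17 to 0.25) and 0.29 (0.08 to 0.50) here and did not pass.

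Pmvk, Fdft1, Cyp51, Msmo1, Hsd17b7, Dhcr7, Insig1, Srebf2, Stard4, Fasn, Scd2 and Fads1 passed in none of the 3 comparisons. Their intensities over the 6 arrays ran from 559.8 to 658 for Pmvk, 1997 to 2499 for Fdft1, 1538 to 1921 for Cyp51 and 7659 to 8586 for Msmo1. Over the same arrays they ran from 1470 to 1725 for Hsd17b7, 802 to 1153 for Dhcr7, 1431 to 1791 for Insig1 and 2709.7 to 3259 for Srebf2. For Stard4 they ran from 1036 to 1249, for Fasn from 1138 to 1379, for Scd2 from 4671 to 5356 and for Fads1 from 1939.9 to 2322. Fdps and Srebf1 also passed in none of the 3 comparisons. Every interval of a member that did not pass excluded a 2-fold difference, in all 3 comparisons.

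Of the 12 calls in this comparison, that of Scd1 alone was kept with any array left out (largest limma adjusted p = 0.00391). Scap and Acaca lost theirs whichever of the 6 arrays was left out (limma adjusted p 0.0512 to 0.211). Mvk, Nsdhl, Ebp and Elovl6 lost theirs whichever of the 4 rescue and wild-type arrays was left out (0.0518 to 0.205). Insig2 lost its call whichever array was left out, except rescue replicate 2 (0.0553 to 0.176), and Sc5d and Acly without either wild-type array or rescue replicate 1 (0.0650 to 0.148). Lss lost its call without either wild-type array or rescue replicate 2 (0.0616 to 0.102), and Sqle without wild-type replicate 1 or either rescue array (0.0552 to 0.0922). Scap and Acaca also lost theirs with quantile normalization (0.144 and 0.124) and with median centring (0.0919 and 0.0650), and Insig2 with quantile normalization (0.0669). The count of higher members was 6 without either null array, 2 without rescue replicate 2, 1 without rescue replicate 1 or wild-type replicate 2, and 0 without wild-type replicate 1. That of lower members was 3 without either null array, 2 without rescue replicate 2 and 1 without each of the other 3 arrays.

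Other genes of sterol and fatty acid metabolism were counted from 5 lists, 84 entries in all, of which 62 were measured. In null minus wild type, 3 of 8 other isoprenoid and sterol synthesis genes were higher and 1 lower, as were 2 and 1 of 9 uptake and trafficking genes, 2 and 1 of 8 SREBP processing genes, 1 and 1 of 13 LXR, efflux and oxysterol genes, and 3 and 1 of 24 other fatty acid and glycerolipid genes. In rescue minus null the higher and lower counts were 1 and 2, 4 and 1, 3 and 2, 2 and 0, and 4 and 1 in the same order of lists. In rescue minus wild type they were 1 and 0, 4 and 1, 3 and 1, 2 and 1, and 8 and 1. The balance of these counts between rescue and null moved with the scaling: the uptake and trafficking genes had 3 higher and 2 lower with quantile normalization and 2 and 3 with median centring, and the other fatty acid and glycerolipid genes had 4 and 4, and 2 and 4. With median centring 7 of these fatty acid genes were higher and 1 lower in null minus wild type. Of all clusters, 8.49%, 9.75% and 10.4% were called higher, and 6.84%, 5.62% and 5.05% lower, in null minus wild type, in rescue minus null and in rescue minus wild type as deposited.

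**Figure D3:**
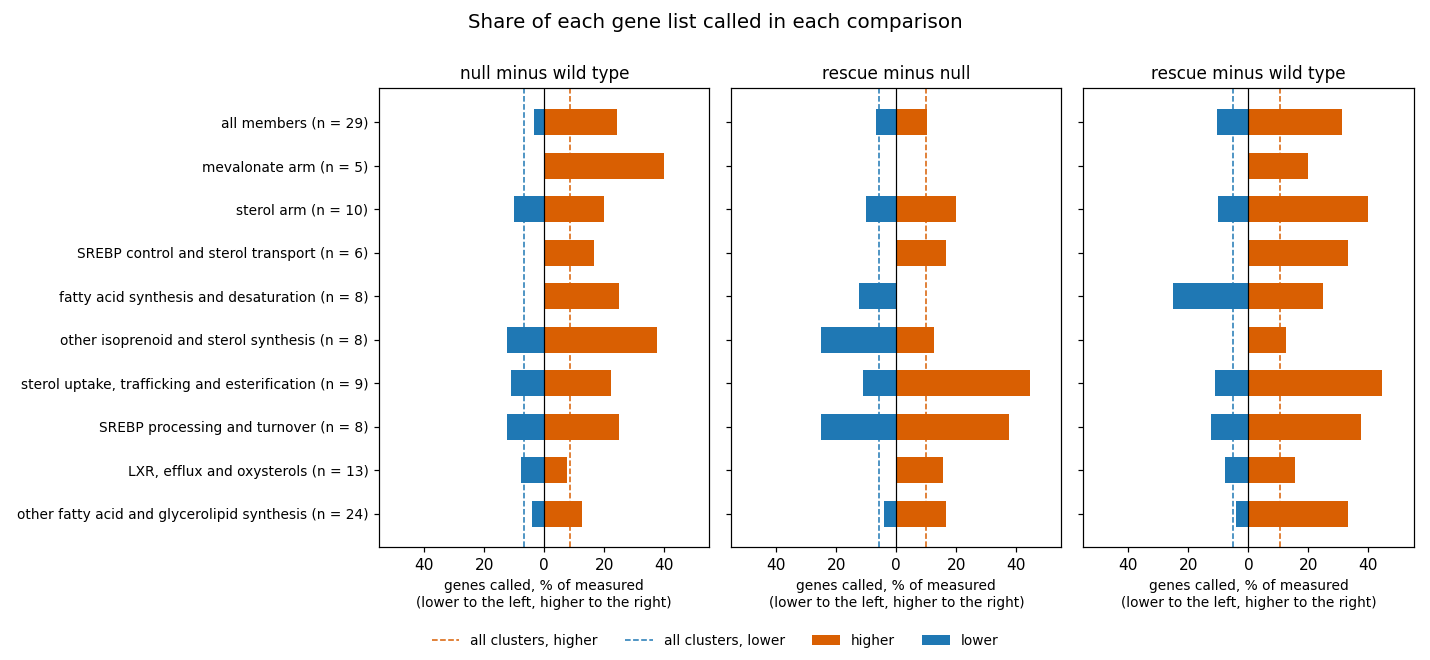
Share of measured genes called higher (to the right) and lower (to the left), in percent, for the 29 members, their 4 groups and the 5 further lists in each comparison, with dashed lines at the share of all clusters called in that direction. For the 29 members 24.1%, 10.3% and 31.0% were higher, beside 8.49%, 9.75% and 10.4% of all clusters. All clusters include dim and unnamed ones, so these shares are not matched for intensity.

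The largest difference on these lists between null and wild type was in Ch25h, whose enzyme makes an oxysterol that blocks SREBP processing. Ch25h averaged 15.2 ± 4.55 in the rescue line, 11.2 ± 3.38 in the null line and 344 ± 24.8 in the wild-type line (SD, n = 2 each). Its intensity was near or below the added constant of 16 in both MK546 lines, where this scale understates a change. The log2 differences were -3.73 ± 0.16 (limma adjusted p = 8.66e-05) for null minus wild type and -3.53 ± 0.16 (limma adjusted p = 9.19e-05) for rescue minus wild type. Of the enzymes that supply the mevalonate and sterol routes, Aacs, acetoacetyl-CoA synthetase, gave 1137 and 1132 on the rescue arrays, 1009 and 974 on the null arrays, with 704 and 707 on the wild-type arrays, with differences of 0.48 ± 0.06 (limma adjusted p = 0.00516) for null minus wild type and 0.67 ± 0.06 (limma adjusted p = 0.00162) for rescue minus wild type. Nus1, a subunit of the prenyltransferase for dolichol, had 1599 and 1597 on the rescue arrays, 1989 and 2093 on the null arrays, with 1642 and 1689 on the wild-type arrays. Lbr, the lamin B receptor, which is also a sterol reductase, had 3368 and 3222 on the rescue arrays, 4199 and 3885 on the null arrays, with 3292 and 3326 on the wild-type arrays. Both stood highest in the null line, by 0.29 and 0.29 over wild type, with rescue minus null at -0.35 and -0.29. Cyb5r3, an electron donor to sterol and fatty acid desaturation, had 2481 and 2046 on the rescue arrays, 1271 and 1401 on the null arrays, with 1993 and 1776 on the wild-type arrays, and rescue minus null was 0.75 ± 0.12 (limma adjusted p = 0.0113).

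Among SREBP processing genes, Erlin1 and Erlin2 encode endoplasmic reticulum proteins that bind cholesterol and restrain SREBP activation. Erlin1 had 1063 and 1067 on the rescue arrays, 1362 and 1530.1 on the null arrays, with 809.7 and 805 on the wild-type arrays, and null minus wild type was 0.83 ± 0.08 (limma adjusted p = 0.00156). Erlin2 had 4355 and 4509 on the rescue arrays, 1624 and 1622 on the null arrays, with 1492 and 1507 on the wild-type arrays, so that the rescue line stood apart from both others, with rescue minus null at 1.44 ± 0.06 (limma adjusted p = 1.45e-04) and rescue minus wild type at 1.55 ± 0.06 (limma adjusted p = 4.75e-05). Of the 20 nearest named genes around Erlin2 on chromosome 8, 6 were called higher and 0 lower in rescue minus null. The counts were 7 and 0 in rescue minus wild type. Of all clusters, 9.75% and 10.4% were called higher in these comparisons, and 5.62% and 5.05% lower. The neighbours' median differences were 0.24 and 0.26, against 0.02 and 0.03 for all clusters. The part of this stretch of the chromosome in the Erlin2 value was not tested. Mbtps1, the protease that makes the first cut in SREBPs, was higher in null than in wild type, at 0.42 ± 0.07 (limma adjusted p = 0.0115), and lower in rescue than in null, at -0.41 ± 0.07 (limma adjusted p = 0.0139). Rnf145, a sterol-responsive ubiquitin ligase, had 1112 and 1154 on the rescue arrays, 669 and 583 on the null arrays, with 747 and 681 on the wild-type arrays, and rescue minus null was 0.84 ± 0.09 (limma adjusted p = 0.00387) and rescue minus wild type 0.66. Ufd1, part of the complex that extracts ubiquitinated proteins from the membrane, was lower in both MK546 lines, at -0.54 for rescue and -0.53 for null against wild type.

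Of the uptake and trafficking genes, Lrp1, a lipoprotein receptor, had 269.6 and 297 on the rescue arrays, 108 and 106 on the null arrays, with 138 and 144 on the wild-type arrays, with rescue minus null at 1.28 ± 0.09 (limma adjusted p = 9.30e-04), rescue minus wild type at 0.93 and null minus wild type at -0.36. Scarb1, the HDL receptor, differed by 0.40 in rescue minus null and 0.47 in rescue minus wild type, and Vldlr by 0.50 in rescue minus null. Npc1, which exports cholesterol from lysosomes, differed by 0.30 in null minus wild type and 0.51 in rescue minus wild type, and Lrp8, an apolipoprotein E receptor, by 0.49 in null minus wild type. The LXR target Abcg1, a cholesterol exporter, had 231 and 236 on the rescue arrays, 135 and 136 on the null arrays, with 132 and 115 on the wild-type arrays, with 0.72 ± 0.09 (limma adjusted p = 0.00714) in rescue minus null and 0.84 in rescue minus wild type. Abca2, an endolysosomal lipid transporter, was called in all 3 comparisons. It differed by 0.34 between null and wild type, 0.52 between rescue and null, and 0.86 between rescue and wild type. Erlin1 was called in all 3 as well. Calls not described further include Cyb5r3, lower in null minus wild type. In rescue minus wild type they include Vldlr, which was higher, and Elovl4, which was lower.

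Among fatty acid genes, Elovl4, which makes the very long chains of epidermal ceramides, had 741 and 598 on the rescue arrays, 481 and 511 on the null arrays, with 1092 and 1011 on the wild-type arrays, and null minus wild type was -1.06 ± 0.11 (limma adjusted p = 0.00285). Elovl1, another elongase of long chains, differed by 0.39 in null minus wild type and -0.45 in rescue minus null. Hsd17b12, the ketoacyl reductase of elongation, had 6445 and 5992 on the rescue arrays, 4390.4 and 4508 on the null arrays, with 4259 and 4289 on the wild-type arrays, with 0.48 ± 0.06 (limma adjusted p = 0.00770) in rescue minus null and 0.54 in rescue minus wild type. Dgat2, which makes triglycerides, differed by 0.73 ± 0.10 (limma adjusted p = 0.00872) in rescue minus null, and Gpam, the acyltransferase that starts glycerolipid synthesis, by 0.40 ± 0.08 (limma adjusted p = 0.0236) in null minus wild type. Mid1ip1, an activator of acetyl-CoA carboxylase, and Agpat2, an acyltransferase, differed by 0.78 and 0.89 in rescue minus wild type.

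Of these 41 calls, 13 were kept with any array left out, among them both calls of Ch25h, Erlin2 and Abcg1, those of Erlin1 and Elovl4 in null minus wild type, and those of Lrp1 and Rnf145 in rescue minus null. The calls of Npc1, Lrp1 and Abca2 in null minus wild type were lost whichever of the 6 arrays was left out (limma adjusted p 0.0529 to 0.205), as was that of Lbr in rescue minus null (0.0756 to 0.166). Those of Nus1, Lbr, Gpam and Elovl1 in null minus wild type were lost whichever of the 4 null and wild-type arrays was left out (0.0655 to 0.197). Without either wild-type array Aacs and Ufd1 lost theirs in null minus wild type (0.0508 to 0.0576), and Scarb1 and Ufd1 in rescue minus wild type (0.0514 to 0.0745). Lrp8 and Mbtps1 lost theirs in null minus wild type without either wild-type array or null replicate 1 (0.0517 to 0.0903). In rescue minus null, Cyb5r3, Hsd17b12 and Dgat2 lost theirs without null replicate 1 (0.0540 to 0.0689), Abca2 without either null array (0.0611 to 0.0663), and Scarb1 and Mbtps1 without either null array or rescue replicate 1 (0.0527 to 0.0775). There Elovl1 needed both null arrays and rescue replicate 2 (0.0587 to 0.0822 without them), Vldlr every array but rescue replicate 1 (0.0761 to 0.157), and Nus1 wild-type replicate 2, both null arrays and rescue replicate 1 (0.0500 to 0.0879). In rescue minus wild type, Npc1, Rnf145, Hsd17b12 and Agpat2 lost theirs without wild-type replicate 2 (0.0524 to 0.0723), and Mid1ip1 without wild-type replicate 1 (limma adjusted p = 0.0576).

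**Figure D4:**
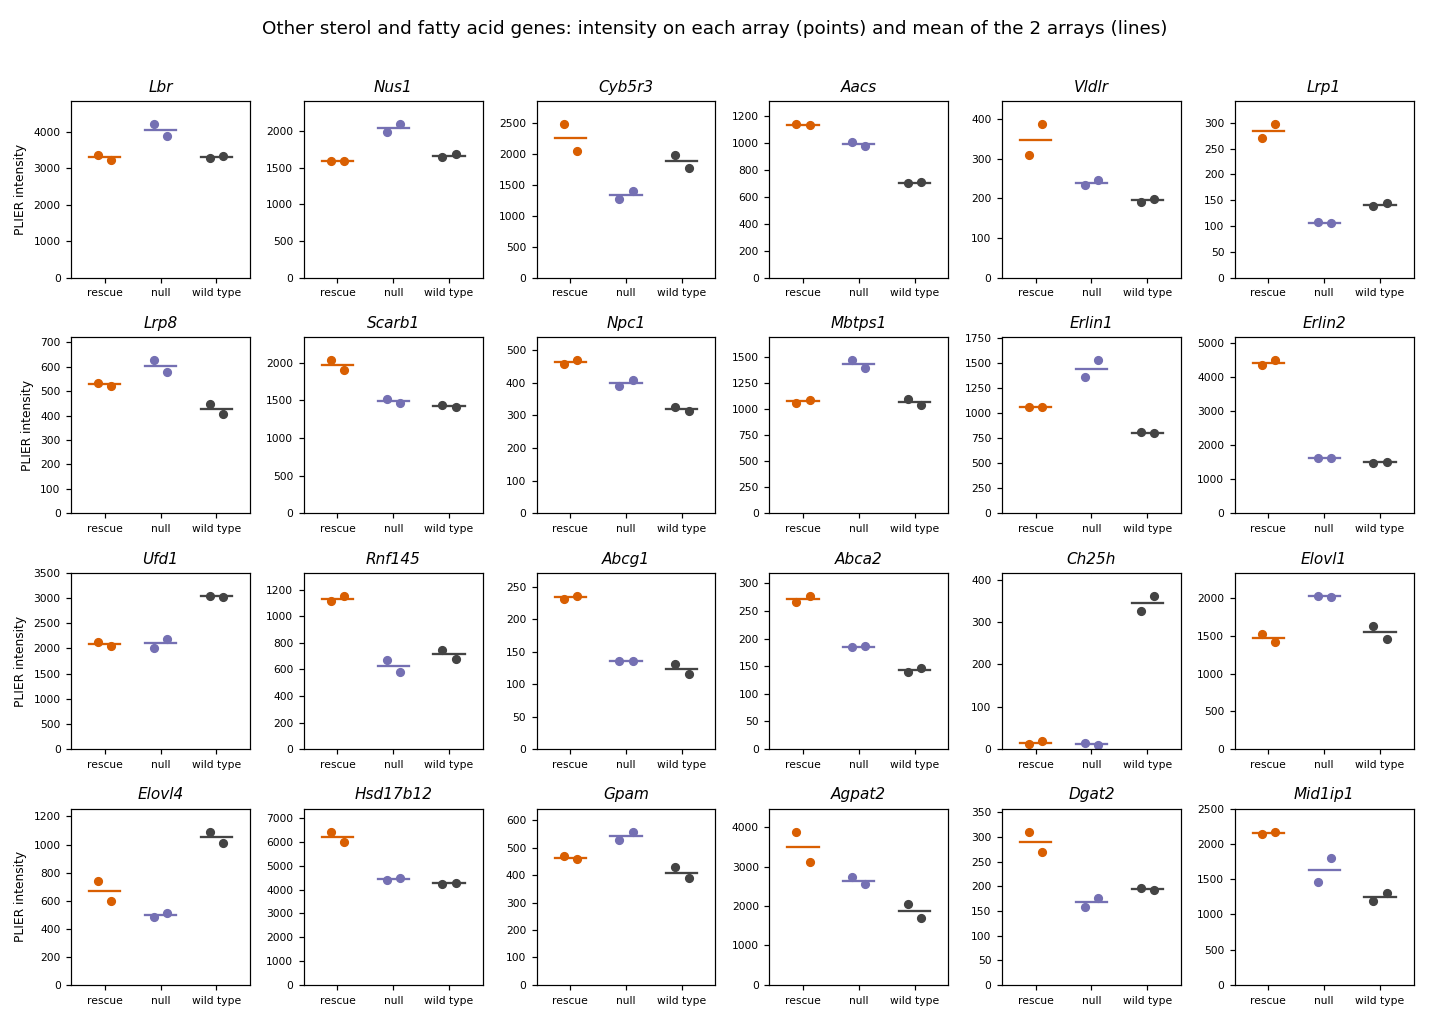
PLIER intensity (linear axis from 0) of the other sterol and fatty acid genes described, on each array of the rescue, null and wild-type lines, with a point per array and a bar at the mean of 2. Ch25h is near 0 on all rescue and null arrays and at 327 and 362 on the wild-type arrays, while Erlin2 lies at 4355 and 4509 on the rescue arrays, far above the others.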

How the data were processed

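Total RNA of 3 mouse keratinocyte lines was hybridised to Affymetrix Mouse Exon 1.0 ST arrays, 2 per line. The deposited values are PLIER intensity values on a linear scale from a core-exon analysis, per the labels. The submitters' processing notes name Expression Console, and the design text another Affymetrix program (Exon Array Computational Tool). Background correction, normalization, versions and build were not given in the sources used here. Of 23332 clusters, 14996 had 1 symbol, 1019 several and 7317 none in the platform annotation. By Entrez identifier, 14941 matched RefSeq (GRCm38.p6), which also gave the promoters.

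Values were fitted as log2(intensity + 16) in limma 3.58.1 (R 4.3.3), with 1 mean per line over all 6 arrays, eBayes with an intensity trend (3 residual and 3.00 prior degrees of freedom) and Benjamini-Hochberg adjustment over all clusters in each of 3 comparisons. Errors are SE of the log2 difference, and intervals are 95% intervals for 1 gene each. On simulated data for null minus wild type (23332 clusters, 50 of them changed at each size), 7 of 163 calls were false. Of the changed clusters, 28%, 84%, 100% and 100% were recovered at log2 sizes of 0.5, 1, 2 and 3.

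Members and lists were chosen with earlier results of these data known. Every member was named, with a test where it was called. Of each further list, the called genes with the smallest adjusted p were named, up to 3 per comparison. A gene so named could also be called in a comparison for which it was not chosen. Scd3 was named besides, as a neighbour of Scd1. Alternatives were the pseudocount, scaling, filters on dim clusters, the variance model, the lines fitted, a replicate block, a 2-fold threshold, the clusters tested and leaving out each array. Where the array left out belonged to the line outside a comparison, the difference stayed as it was. Such a setting changed only the shared estimate of the spread, and with it the adjusted p.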

Additional observations from a re-analysis of the deposited data

How the results depend on the processing

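Over the 3 comparisons 25 member calls were made, and 0 changed sign under the 18 alternatives that give each call a value. The 5 kept under all of them were Lss and Ebp in null minus wild type, Scap and Scd1 in rescue minus null, and Scd1 in rescue minus wild type. Other pathway genes had 41 named calls, of which 13 were kept under all 18 and 0 changed sign. Of the 25 member calls, 8 were kept without the variance trend, 16 with only the 2 lines compared, 18 after quantile normalization, 19 with the replicate block and 22 after median centring. Counts of members are given here as higher and lower. In null minus wild type they were 7 and 1 as reported, 4 and 2 after quantile normalization, 9 and 2 with clusters above the median of mean log2, 1 and 1 without the variance trend, 10 and 2 both with only clusters of 1 symbol and with symbols averaged, 0 and 0 at 2-fold, and 1 to 5 and 1 with an array left out. In rescue minus null they were 3 and 2 as reported, 2 and 4 after quantile normalization, 2 and 6 after median centring, 3 and 4 with a mean intensity of 32 or more, 3 and 6 with clusters above that median, with clusters of 1 symbol or with symbols averaged, 1 and 1 without the trend or with only the 2 lines compared, 0 and 1 at 2-fold, and, leaving out an array, 1 to 2 and 1 to 3. In rescue minus wild type they were 9 and 3 as reported, 6 and 3 after quantile normalization, 3 and 1 without the trend, 0 and 1 at 2-fold, and, leaving out an array, 0 to 6 and 1 to 3. After median centring the counts were 10 and 1 in null minus wild type and 7 and 3 in rescue minus wild type. The 2 scalings thus moved the higher count in null minus wild type in opposite directions. The pseudocounts of 1 and 64 and the robust variance moved no count by over 1.5 times. Fewer clusters were tested under the filters, and the causes of the other moves were not tested.

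The replicate numbers did not pair the arrays. Deviations of same-numbered arrays correlated at 0.03 (wild type and null), 0.05 (wild type and rescue) and -0.02 (null and rescue). With the replicate block the counts were 6 and 1, 2 and 2, and 5 and 3 in the 3 comparisons. With 2 arrays a line and no detection calls, differences well under 2-fold remain imprecise. In the simulation 28% of log2 changes of 0.5 were recovered. That simulation changed 50 clusters at each size and gave 163 calls, while the data gave 3578 in null minus wild type. The adjusted p depends on how many clusters differ, so the 28% is not the share recovered in these data.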
